A study of Arabidopsis thaliana with 6 samples.

Results

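Sulfate enters plant metabolism through ATP sulfurylase, which activates it to adenosine 5'-phosphosulfate. APS reductase then yields sulfite, and sulfite reductase turns sulfite into the sulfide from which cysteine is made. Cysteine feeds glutathione and the phytochelatins that bind cadmium, so the pathway is often studied in cadmium-exposed roots, and sulfur-starved plants also make beta-glucosidases that break down stored glucosinolates. The 4 genes described here were taken by locus as steps of this route: APS3 (AT4G14680) and APS4 (AT5G43780), both ATP sulfurylases, SIR (AT5G04590), the sulfite reductase, and BGLU28 (AT2G44460), a beta-glucosidase known for its rise under sulfur starvation. Each had 1 probe set annotated with exactly 1 gene, and these 4 are part of 13356 genes so annotated and of 22810 probe sets in all. All 4 passed the filter on low signals.

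Total RNA came from roots of 4-week-old hydroponic Arabidopsis thaliana of the Col-0 accession, wild type in every group as far as the labels say. There were 3 arrays labelled control, from plants left without cadmium, and 3 labelled cadmium, from plants given 200 µM cadmium for 6 h. Each sample was read on 1 Affymetrix ATH1 array, and values are linear MAS5 signals without a physical unit. The labels call the replicates biological without saying whether plants were pooled, and with 3 arrays a group every value has limited precision.

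The arrays of replicate 2 stood apart from the other 4 and went against them. Their trimmed mean signal was 216 and 227, whereas it was 500 on each array of replicates 1 and 3, and their 3' to 5' actin ratio (log2) was 2.05 and 3.22 against 0.07 to 0.34 elsewhere. Across 15909 tested probe sets, Pearson's r between the cadmium minus control differences was 0.77 for replicates 1 and 3, -0.68 for 1 and 2, and -0.63 for 2 and 3, taken across genes that cannot count as replicates. Of the tested probe sets 59.7% went alike in replicates 1 and 3 and the opposite way in replicate 2, and 17.3% went 1 way in all 3 pairs. The sample descriptions also number the replicates differently from the titles used here. Which arrays received cadmium was not tested, so "control" and "cadmium" below mean the label, and each result is given over all 6 arrays, within replicates 1 and 3, and for replicate 2 alone. Of 20 root markers 3 had a named probe set, with summed signals of 421, 369 and 843 on control arrays 1, 2 and 3 and 998, 390 and 1919 on the cadmium arrays, higher on the cadmium array of every pair and over 2-fold so in replicates 1 and 3. One of these, XTH26, an enzyme of root hair walls, was dim on all control arrays, below 62.1, the 30th percentile of all signals. The sum hides unlike members in replicate 2. There EXPA7 was lower on the cadmium array, at 127 against 164. EXPA18 was higher, at 179 against 163, and XTH26 went from a dim 42.8 to 83.5. Of 16 leaf photosynthesis markers 3 had a named probe set, with sums of 1924, 315 and 1827 and of 2310, 377 and 1960, also higher on the cadmium array of every pair. In replicate 3 SBPASE was lower on the cadmium array, at 167 against 192, while PRK and RCA were higher. The part of these markers in the results was not tested. In whole roots, fewer cells of a type and less RNA per cell cannot be told apart.

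The comparison of the groups asks which transcripts of this route differ after 6 h of cadmium. Of the 4 genes, APS3 and BGLU28 differed widely within every replicate pair and in opposite directions between pairs, whereas APS4 and SIR stayed within 1.67-fold in each pair. Over all 6 arrays 0 of 4 passed an adjusted p of 0.05 in limma, beside 0% of all tested probe sets (84 of these, or 0.528%, had an unadjusted p under 0.05, and none of the 4 was among them). Within replicates 1 and 3, APS3 and BGLU28 were lower on the cadmium arrays past that threshold, beside 3.24% of tested probe sets, and 0 of 4 were higher, beside 1.29%. Counted without a model, the groups of replicates 1 and 3 did not overlap for APS3, SIR and BGLU28, lower on cadmium arrays beside 16.9% of tested probe sets, and 0 of 4 were higher without overlap, beside 40.8%. On all 6 arrays the groups of each member overlapped, as they did for all but 0.371% of tested probe sets that were lower and 0.71% that were higher on cadmium arrays. Of the 4 members, APS3, SIR and BGLU28 were opposed in replicate 2 and 0 went 1 way in all 3 pairs, which is to be read beside the 59.7% and 17.3% above.

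APS3 encodes an ATP sulfurylase of the plastid, and its transcript is, like those of APS1 and APS4, a known target of the microRNA miR395. Its signal was 5272, 251 and 4617 on control arrays 1, 2 and 3, and 403, 3730 and 386 on cadmium arrays 1, 2 and 3. Thus 3 arrays were high, control 1, control 3 and cadmium 2, and 3 were low, and the groups overlapped. In rank the high arrays placed APS3 at the 98.0, 97.7 and 99.5 percentile of the probe sets on their own array, and the low arrays at 63.3, 63.3 and 73.7. The brighter array of a pair exceeded the dimmer by 13.1-fold, 14.9-fold and 12.0-fold in replicates 1, 2 and 3, so the size was alike in the 3 pairs while the direction was not. The log2 differences, cadmium minus control, were -3.71, 3.89 and -3.58, beside medians of all tested probe sets of 0.29, -0.11 and 0.16.

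Within replicates 1 and 3 the log2 difference of APS3 was -3.65 ± 0.20 (SE, 95% interval -4.15 to -3.14), with an adjusted p of 0.00915 in limma, a 12.5-fold lower signal on cadmium arrays. That value stood 108th from the lowest of 15909 probe sets. Over all 6 arrays the difference was -1.13 ± 1.13 (SE, adjusted p = 1 in limma), and an exact two-sided permutation test of 3 against 3 arrays gave p = 0.8, where 0.1 is the smallest it can give. The call within replicates 1 and 3 held in all 11 alternatives tried there. Changes of normalization, filter, floor, pseudocount or trend gave an adjusted p of 0.00798 to 0.0237 in limma. A replicate block gave 7.45e-05 in limma with 1 residual degree of freedom, using numbers that no label explains as pairs. Leaving out single arrays gave differences of -3.74 to -3.55. Without replicate 1 or replicate 3 the difference over the other arrays was 0.16 or 0.09.

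APS4 encodes the other ATP sulfurylase measured. Its signal was 2630, 2293 and 4618 on control arrays 1, 2 and 3, and 3318, 1376 and 4594 on the cadmium arrays. The groups overlapped. Its percentile on an array, a rank that does not depend on the scaling, lay between 94.6, on control 1, and 98.7, on control 2. The log2 differences in replicates 1, 2 and 3 were 0.34, -0.74 and -0.01. Within replicates 1 and 3 the log2 difference was 0.16 ± 0.33 (SE, adjusted p = 0.789 in limma). All tested probe sets had a median of 0.22, and APS4 turned to -0.02 after median centring. On all 6 arrays it was -0.14 ± 0.74 (SE, adjusted p = 1 in limma; exact permutation p = 0.9). The 95% interval within replicates 1 and 3 reaches from 0.626-fold to 2.01-fold, so changes within that range are not excluded by these arrays.

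SIR, the sulfite reductase that follows in the plastid, carries sirohaem and an iron-sulfur cluster. Its signal was 3776, 1297 and 4136 on control arrays 1, 2 and 3, and 3448, 1691 and 3141 on the cadmium arrays. Within replicates 1 and 3 both cadmium arrays were below both control arrays, and in replicate 2 the cadmium array was the higher. As with APS3 the direction of replicate 2 was opposed, but the brighter array exceeded the dimmer by only 1.10-fold, 1.30-fold and 1.32-fold in replicates 1, 2 and 3. Its percentile on an array lay between 96.0 and 97.2 on all 6. The log2 difference within replicates 1 and 3 was -0.26 ± 0.18 (SE, 95% interval -0.71 to 0.18, adjusted p = 0.401 in limma), an interval of 0.611-fold to 1.13-fold. With all 6 arrays it was -0.05 ± 0.75 (SE, adjusted p = 1 in limma; exact permutation p = 0.9).

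**Figure D1:**
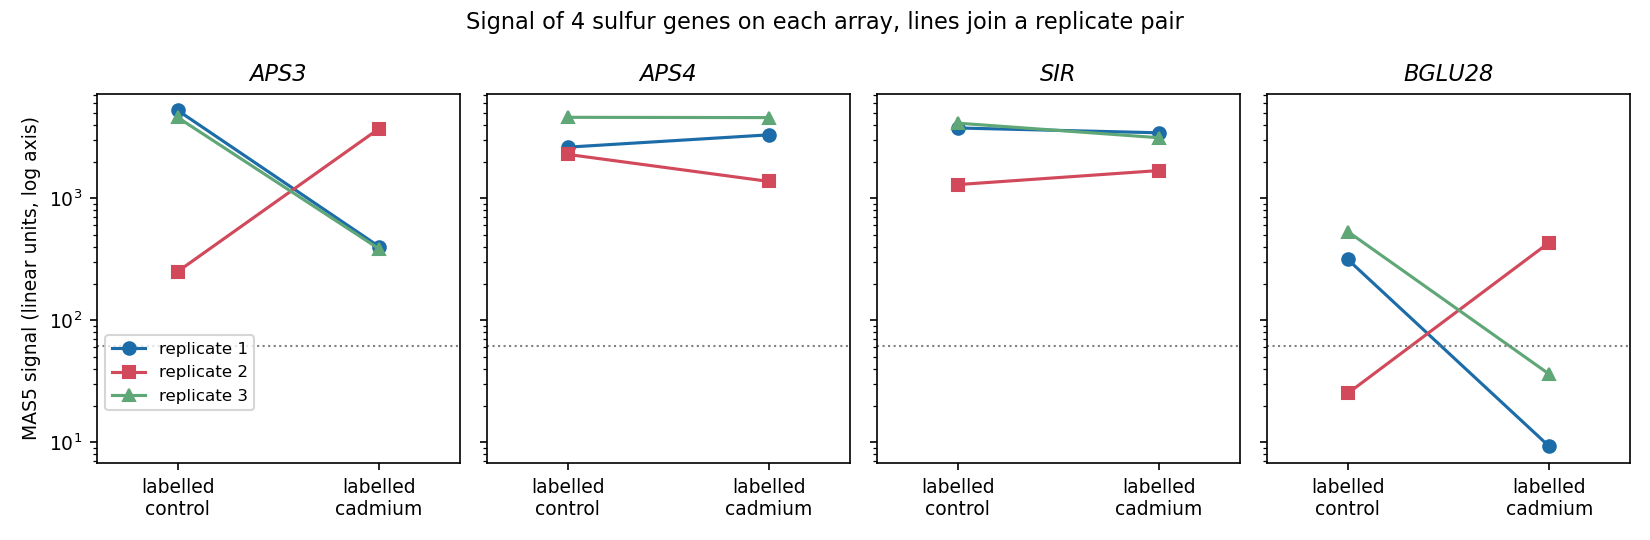
Signal of APS3, APS4, SIR and BGLU28 on each array (MAS5 units, log axis), with a line joining the control and cadmium array of a replicate and a dotted line at 62.1. The lines of APS3 and BGLU28 cross, falling in replicates 1 and 3 and rising in replicate 2, whereas those of APS4 and SIR are nearly level.

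BGLU28 belongs to the glycoside hydrolases that can release sulfur from glucosinolates in sulfur-starved plants. Its signal was 316, 25.2 and 535 on control arrays 1, 2 and 3, and 9.27, 435 and 36.2 on the cadmium arrays. The same 3 arrays as for APS3 were high, and the 3 low ones were all below 62.1, where a MAS5 signal gives little more than a bound. With lower signals set to 62.1, the brighter array exceeded the dimmer by at least 5.09-fold, 7.00-fold and 8.62-fold in replicates 1, 2 and 3. BGLU28 was at least 6.62-fold lower on the cadmium arrays of replicates 1 and 3 (adjusted p = 0.0301 in limma with the bound). Both of these cadmium arrays take the value 62.1 there, so that p leaves out the spread between them and is no stronger evidence than the deposited values. As deposited, the log2 difference was -4.49 ± 0.75 (SE, adjusted p = 0.0431 in limma).

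BGLU28 on all 6 arrays was at -1.62 ± 1.24 as deposited (SE, adjusted p = 1 in limma; exact permutation p = 0.6). The call within replicates 1 and 3 was near the threshold and ended in 6 of 11 alternatives, among them leaving out control replicate 1 (adjusted p = 0.0550), cadmium replicate 1 (0.0545) or control replicate 3 (0.0822). In rank the low arrays placed BGLU28 at the 8.16, 13.9 and 20.3 percentile of their probe sets in replicates 1, 2 and 3, against 61.6, 84.3 and 73.2 on the high arrays.

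**Figure D2:**
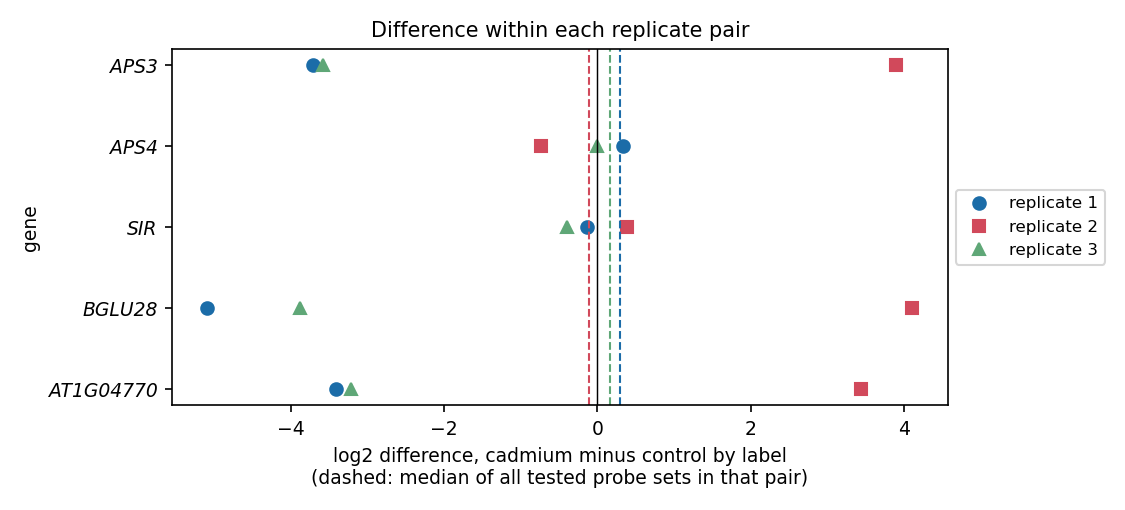
Log2 difference between the cadmium and control array of each replicate pair for the 4 genes and AT1G04770, with dashed lines at the median of all tested probe sets in that pair. As deposited, APS3, BGLU28 and AT1G04770 lie beyond 3 on the log2 scale in every pair, with replicate 2 on the other side of 0, and APS4 and SIR lie within 1.

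The ATP sulfurylase isoforms were set against each other within each pair through the change in their log2 signal ratio, which does not depend on the scaling of an array. APS3 relative to APS4 changed by -4.05, 4.63 and -3.57 in replicates 1, 2 and 3, so the isoforms parted by over 3 on the log2 scale in every pair, with the larger share from APS3. APS3 relative to SIR changed by -3.58, 3.51 and -3.18. APS4 relative to SIR changed by 0.47, -1.12 and 0.39, a smaller change, opposite in sign to that of APS3 relative to APS4 in each pair.

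BGLU28 was high and low on the same arrays as APS3. Its ratio to APS3 changed by -1.38, 0.21 and -0.30 as deposited and by 1.36, -1.09 and 0.47 with dim signals set to 62.1, so no direction can be given for which of these genes moved further. Its ratio to APS4 changed by -5.43, 4.84 and -3.88 as deposited, and to SIR by -4.96, 3.72 and -3.49. With dim signals set to 62.1 these changes were smaller, at -2.68, 3.54 and -3.10 to APS4 and -2.22, 2.43 and -2.71 to SIR. Over all 6 arrays none of the 6 pairs of genes gave a difference between the groups (exact permutation p = 0.6 to 0.9, each 0.9 after Benjamini-Hochberg adjustment over the 6). A ratio shows unequal change between genes and does not show that APS4 or SIR was constant.

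**Figure D3:**
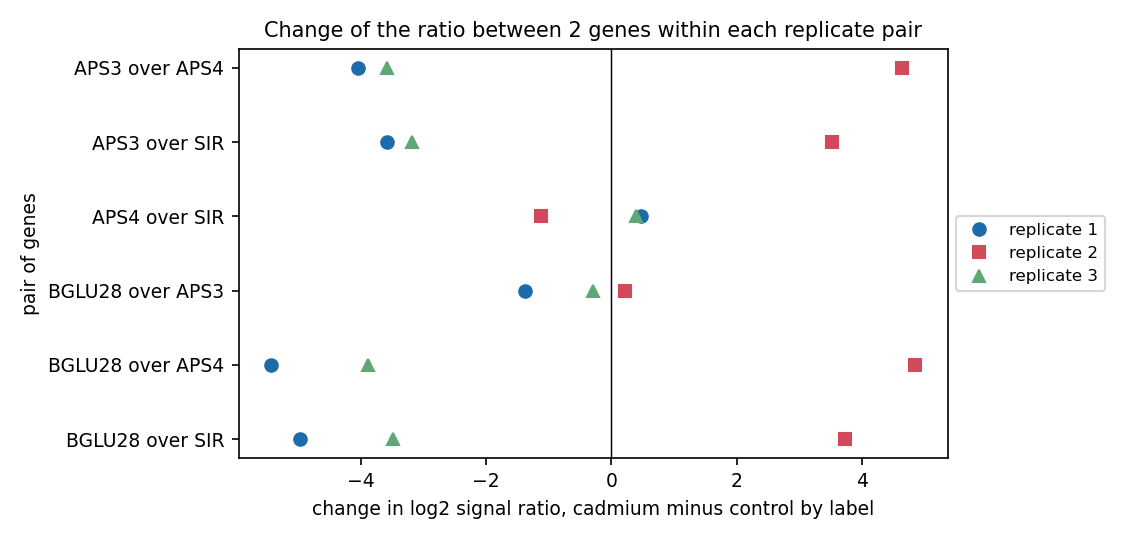
Change in the log2 ratio of the signals of 2 genes between the cadmium and control array of each replicate pair, for the 6 pairs of genes. As deposited, the ratios of APS3 or BGLU28 to APS4 or SIR change by more than 3 in each pair, and those of BGLU28 to APS3 and of APS4 to SIR change by less than 1.5.

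Of 49 genes in lists of sulfate uptake, sulfate activation and reduction, cysteine and glutathione synthesis, and the sulfur starvation response, 5 had a named probe set, the 4 members and AT1G04770, and the others are not analysed here. Activation and reduction had 3 tested genes of 14 listed, of which 1 was lower and 0 higher within replicates 1 and 3. The starvation response had 2 of 11, both lower, though BGLU28 lost its call in 6 of 11 alternatives and AT1G04770 in 3 of 11. Over all tested probe sets 3.24% were lower and 1.29% higher. Apart from AT1G04770 the list counts repeat the results of the members and add nothing to them. AT1G04770, which the annotation used here gives no symbol, measured 6397, 181 and 2771 on control arrays 1, 2 and 3, and 602, 1968 and 299 on their cadmium partners. It was high on the same 3 arrays as APS3 and BGLU28. The brighter array of a pair exceeded the dimmer by 10.6-fold, 10.8-fold and 9.26-fold. Its log2 difference was -3.31 ± 0.52 within replicates 1 and 3 (SE, adjusted p = 0.0371 in limma), a call that ended without cadmium replicate 1 (adjusted p = 0.0627) or cadmium replicate 3 (0.110).

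Differences of at least 2-fold in every pair, alike in replicates 1 and 3 and opposed in replicate 2, were found in 6.06% of tested probe sets. APS3 and BGLU28 were among them, 2 of the 4 members, and so were AT1G04770 and BGLU27. The ubiquitin 3' to 5' ratio (log2) was higher on the cadmium array of all 3 pairs, at 0.59, 0.37 and 0.38 against 0.28, -0.02 and 0.08. The GAPDH ratio was -0.57, 1.67 and -0.19 on the cadmium arrays against -0.60, 2.02 and -0.34. It was higher in replicates 1 and 3 and lower in replicate 2, with signs opposite to those of these genes. Its values in replicate 1 were nearly equal. The actin ratio was 0.22, 3.22 and 0.34 against 0.29, 2.05 and 0.07, lower in replicate 1 and higher in the others. The part of RNA quality in the results was not tested.

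Beta-glucosidases form a large family with varied substrates, and 19 other members had a named probe set, of which 8 passed the filter on low signals. Of these 8, 1 was lower on cadmium arrays and 0 higher within replicates 1 and 3, beside 3.24% and 1.29% of the whole tested set, and their median log2 difference was -0.12, where that of the whole set was 0.22. The lower one was BGLU27, with signals of 712, 28.6 and 330 on control arrays 1, 2 and 3 and 61.1, 797 and 73.3 on the cadmium arrays. It was high on the same arrays as BGLU28. With the bound it was at least 7.19-fold lower within replicates 1 and 3 (adjusted p = 0.0418 in limma), and its log2 difference in replicate 2 was at least 3.68. As deposited the call (adjusted p = 0.0351) ended without control replicate 1 (0.0571), cadmium replicate 1 (0.118) or cadmium replicate 3 (0.0938).

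BGLU15 and BGLU29 lie directly on either side of BGLU28 among protein-coding genes in the TAIR10.1 annotation. The signal of BGLU15 in replicates 1, 2 and 3 was 555, 223 and 631 for control and 998, 191 and 1029 for cadmium. Its log2 difference within replicates 1 and 3 was 0.78 ± 0.21 (SE, adjusted p = 0.108 in limma), so it did not pass the threshold and its sign differed from that of BGLU28. BGLU29 had signals of 15.9 to 45.2, below 62.1 on all 6 arrays, and was not tested. Among the other tested beta-glucosidases, BGLU25 had differences of 0.25, 0.21 and 0.13 in replicates 1, 2 and 3, and BGLU46 of -0.05, -0.22 and -0.67. These 2 of the 8 went 1 way in all 3 pairs, beside 17.3% of all tested probe sets. Of the 8, 3 were alike in replicates 1 and 3 and opposed in replicate 2, beside 59.7%. Leaving BGLU27 aside, the remaining differences lay between -1.59 and 0.93.

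**Figure D4:**
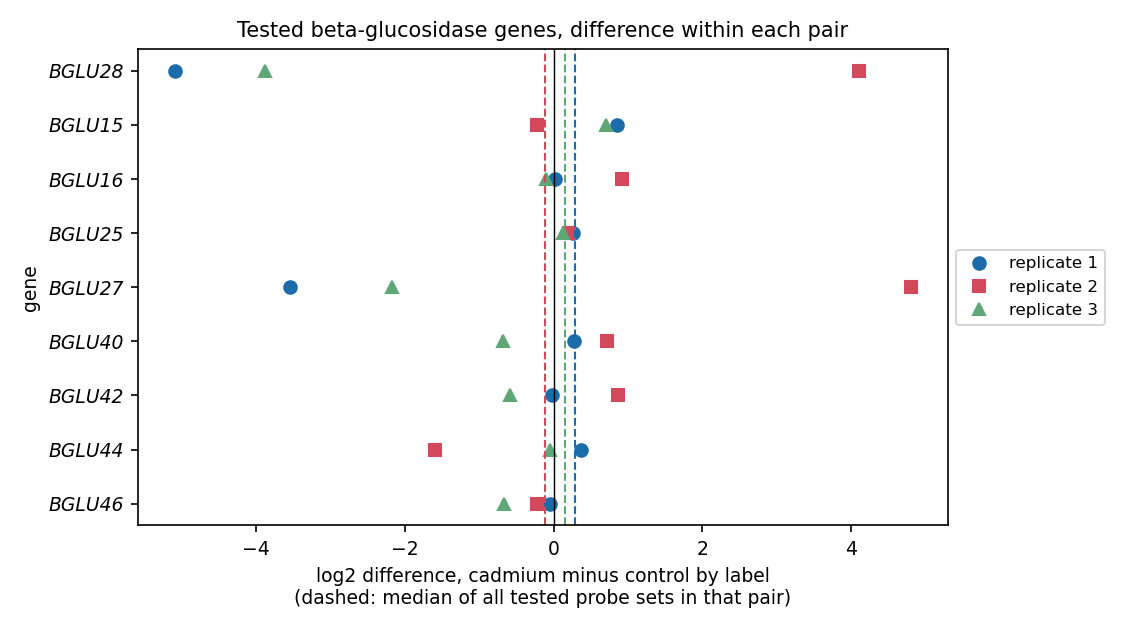
Log2 difference between the cadmium and control array of each replicate pair for BGLU28 and the 8 other tested beta-glucosidase genes, with dashed lines at the median of all tested probe sets in that pair. BGLU28 and BGLU27 lie beyond 2 in every pair with replicate 2 opposed, and the other 7 lie within 1.6.

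The genes with the pattern most like each member over the 6 arrays were ranked by Pearson's r of log2 signals, after each array was centred on its median, among 8625 other genes. The arrays share their scaling and the alternation described above, so these values are a description. For APS3 the closest were NDB2, an external NADH dehydrogenase of mitochondria (r = 0.998), AT1G67060 (0.997) and AT4G23030 (0.996), and 2.14% of genes reached 0.95. For BGLU28 they were AT2G01600 (0.998), SUFE2, a protein of iron-sulfur cluster assembly (0.994), and PRA1.B4 (0.991), with 1.47% of genes at 0.95 or more. SUFE2 differed by -4.11, 2.48 and -2.84 in replicates 1, 2 and 3.

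For SIR the closest were AT5G67340 (r = 0.9998), AT1G21590 (0.997) and AT1G64140 (0.993). Likeness in r says nothing of size, as AT5G67340 differed by -1.47, 2.18 and -2.33 where SIR differed by -0.13, 0.38 and -0.40. For APS4 they were AT2G20740 (0.983), AT2G39360 (0.978) and AT2G28990 (0.977), and only 0.104% of genes reached 0.95. Between members, r was 0.953 for APS3 with BGLU28 and 0.936 for APS3 with SIR, and it was -0.29 for APS3 with APS4. AT1G04770 gave 0.963 with APS3.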

How the data were processed

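The authors deposited 1 linear intensity per probe set and array. Per the submitters' processing notes MAS5 made these values, and the notes give no version among the sources used here. Every value column entered the analysis, and titles gave each array its group and replicate. The 7 signals of 0, found on control replicate 2 only, were replaced by the lowest signal above 0 on it. The 64 control probe sets and probe sets with a mean signal under 73.0 (the 30th percentile) were left out, which left 15909. Log2 signals were fitted with limma 3.58.1 in R 4.3.3 (lmFit, eBayes with an intensity trend, two-sided, Benjamini-Hochberg adjustment over all tested probe sets, threshold 0.05), over 3 against 3 arrays with 4 residual degrees of freedom and over replicates 1 and 3 with 2. Replicate 2 alone allows no test. Intervals are 95%. Fits were tested on simulated arrays with known changes and independent noise, as a check on the size of the estimates. The simulation held no opposed replicate and no deviation shared by arrays, so it does not cover these features of the data.

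Genes were named where the annotation gives a probe set 1 gene (13513 probe sets, 503 with several, 8730 with none), updated to TAIR10.1 RefSeq. The probe set with the highest mean was used per gene. The members, lists, the fit of replicates 1 and 3, and the named genes (members, listed genes, ATP sulfurylase and BGLU symbols, and the 3 genes most like each member) were chosen with earlier results of these data known. BGLU27 and AT1G04770 were put through the alternatives after their values were seen. "At least" marks folds with signals under 62.1, the 30th percentile of all signals, set to that value. P-values measure the spread between arrays, except among signals set to 62.1, which have none. In limma a gene's spread is moderated with that of other probe sets at like intensity, so its p-values and intervals do not rest on that gene alone. With 2 against 2 arrays an exact two-sided permutation test cannot go under 0.333.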

Additional observations from a re-analysis of the deposited data

How the results depend on the processing

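Within replicates 1 and 3 APS3 kept its direction and side of the threshold in all 11 alternatives, and SIR did too. BGLU28 kept its direction but lost its call after quantile normalization (-4.42, adjusted p = 0.0536), with no filter on low signals (-4.49, 0.0514), with no intensity trend (-4.49, 0.0598) and without some single arrays (-5.47 to -3.50 over the 4 arrays left out in turn). APS4 was at -0.0217 after median centring and -0.24 to 0.57 without single arrays. The number of probe sets past the threshold was 721 there, 353 without an intensity trend, and 142 to 1266 without single arrays.

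Over all 6 arrays 0 probe sets passed, 1 passed without control replicate 1, and 721 passed without replicate 2. With array weights, which were lowest for the arrays of replicate 2 (0.20 and 0.12, against 1.32 to 3.56 elsewhere), 1560 passed. APS3 was then at -3.43 and BGLU28 at -4.61 (adjusted p = 0.000133 in limma for both), and APS4 at 0.0921. The weights were estimated from these same signals and nearly remove replicate 2, so this fit is no separate evidence beside that of replicates 1 and 3. Leaving out arrays or pairs moved APS3 between -3.65 and 0.16, APS4 between -0.50 and 0.37, SIR between -0.58 and 0.27, and BGLU28 between -4.49 and 0.11. The mean change of ratios without 1 pair ranged from -3.81 to 0.53 for APS3 over APS4, -3.38 to 0.16 for APS3 over SIR, -0.36 to 0.43 for APS4 over SIR, -4.65 to 0.48 for BGLU28 over APS4 and -4.22 to 0.12 for BGLU28 over SIR, and BGLU28 over APS3 turned from -0.49 to 0.25 with the floor. AT1G04770 and BGLU27 also lost their calls without an intensity trend (adjusted p = 0.0636 and 0.0531).

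Same-numbered arrays deviated together only in part (r = 0.11, -0.04 and 0.29 in replicates 1, 2 and 3 over all 6 arrays, and 0.53 within replicates 1 and 3 alone). No label says what a number stands for, so the main fits do not use the numbers as pairs. Differences within a replicate are given as values. The arrays of replicate 2 shared low trimmed mean signals of 216 and 227. The r of replicate 2 rests on deviations from each group's mean and does not show that these arrays are unlinked. With a replicate block 3521 probe sets passed within replicates 1 and 3, 1 residual degree of freedom, and 0 over all 6 arrays, and no member's call changed. Signals under 62.1 limit BGLU28 and BGLU27 to bounds.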
